A study of Mus musculus with 4 samples.

Results

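The Tead transcription factors, their coactivators and 4 genes that they are known to activate were followed through 4 maps of open chromatin in mouse cells. The 10 genes are Tead1, Tead2, Tead3 and Tead4, the coactivator genes Yap1 and Wwtr1 (which encodes Taz), and the targets Ccn1 (formerly Cyr61), Ccn2 (formerly Ctgf), Ankrd1 and Amotl2. They were chosen by name from the Hippo pathway. Every peak over a gene body or within 50 kb of it was taken, which gave 316 of 157212 listed peaks in fibroblasts, 264 of 133235 in the intermediate cells, 177 of 132875 in iPSC and 202 of 129533 in ESC.

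ATAC-seq marks open DNA by letting a transposase insert sequencing adapters into it. There was 1 library for each of 4 groups, each from 50000 cells, with a transposition of 30 minutes at 37 °C and 12 cycles of PCR. Mouse embryonic fibroblasts (MEF) and induced pluripotent stem cells (iPSC) both carried A12 (Mbd3 flox/-) as strain and transgene, so in both 1 Mbd3 allele was floxed and the other missing. The intermediate cells were B6/129 MEFs with a Nanog-CreER reporter. Their transgenes were Rosa26-TdTomato, from a B6 female, and Col1a-OSKM, from a 129 male. They were taken through the first stage of a conversion toward neural stem cells with Oct4, Sox2, Klf4 and Myc (OSKM), with doxycycline and 4-hydroxytamoxifen from day 1 to day 9 and a JAK1 inhibitor at 0.5 µM. Cells in which the Nanog-driven Cre had switched on tdTomato were sorted, so they are a selected fraction. The title of that library says day 9 and its source field says day 6. Embryonic stem cells (ESC) were of the line v6.5. The sources used here do not state ages, or how many animals or clones went into a library.

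In the Hippo pathway, the kinases Mst and Lats phosphorylate Yap and Taz and hold them in the cytoplasm. Without that phosphorylation Yap and Taz enter the nucleus, where they have no DNA-binding domain of their own and act through Tead proteins. Tead proteins recognise the sequence GGAATG. The pathway is known for its response to cell spreading, matrix stiffness and cell contact, and Yap is commonly nuclear in fibroblasts spread on plastic.

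With 1 library per group there is no replicate check and no test of a difference, and peak heights are unscaled for depth, which is not known from the peak lists. Intervals below are 95% Wilson intervals and cover counting error only. The intermediate cells differ from the MEF library in strain and transgenes as well as treatment, and the effects of these cannot be told apart. In a bulk sample, fewer cells with an open site and a less open site in each cell cannot be told apart either. All comparisons with MEF share the 1 MEF library. As a check of the labels, peaks within 1 kb of a start site were counted at marker genes. Of 10 fibroblast genes, 10 had such a peak in MEF, 3 in intermediate cells, 5 in iPSC and 7 in ESC. Of 10 pluripotency genes, none had one in MEF, 9 in the intermediate and 10 in both pluripotent lines. Of 8 epithelial genes, 1 had one in MEF, 8 in intermediate cells, 7 in iPSC and 8 in ESC. The count went from 2 to 1 of 5 for endothelial genes and from 3 to 2 of 6 for myeloid genes between MEF and the intermediate.

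The 6 factor and coactivator genes had a listed peak within 1 kb of a start site in all 4 libraries, and so did Ccn1, Ccn2 and Amotl2. At Tead2 the nearest peak in the intermediate lay 0.379 kb from the start site and not over it. The gene without such a peak in some libraries was Ankrd1, which encodes an ankyrin-repeat protein of the nucleus and is a much-used readout of Yap activity. It had a peak over its start site in MEF and none within 1 kb in the intermediate, iPSC or ESC. In all, 10 of the 10 genes had a peak within 1 kb of a start site in MEF, where 64.0% of 21631 protein-coding genes did. The count was 9 in each other library, against 62.1% of genes in intermediate cells, 65.3% in iPSC and 67.1% in ESC. A start-site peak was lost between MEF and the intermediate at 6.90% of all genes and gained at 4.94%, and 2.33% of all genes had one in MEF and in no other library, as Ankrd1 did. For Tead1, Tead4 and Ccn2 no start site was at hand and either gene end was used.

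The Ankrd1 peak lay at chr19:36119451-36120421 (GRCm38) over the start of the gene body (chr19:36111965-36119844, minus strand). Its height was 127 in MEF, taller than 94.8% of the peaks in that list. From the Ankrd1 start site, the nearest listed peak was 9.90 kb away in intermediate cells, 35.6 kb in iPSC and 35.5 kb in ESC. Every other start-site peak was present 4 times, with no order of the libraries shared by all the genes. At Ccn1 the tallest peak within 1 kb of the start had a height of 111 in MEF, 144 in intermediate cells, 105 in iPSC and 104 in ESC. At Amotl2, whose product is an angiomotin that binds Yap at cell junctions, the heights were 115, 135, 112 and 127 in the same order. At Ccn2 they were 128, 113, 220 and 157. Ccn1 and Ccn2 encode secreted proteins of the matrix. So 3 of the 4 targets showed a start-site peak of over 100 in every library.

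Among the factors, the Tead1 peak had a height of 114 in MEF, 72 in intermediate cells, 135 in iPSC and 109 in ESC. Tead2 was the lowest of the 10 genes in MEF, with 57, 36, 53 and 51. Tead3 had 97, 40, 45 and 112, and Tead4 had 119, 165, 73 and 101. The start-site peaks of Tead1, Tead2 and Tead3 were lowest in the intermediate and that of Tead4 was highest there. The coactivator gene Yap1 had 75, 87, 100 and 118, and Wwtr1 had 152, 143, 303 and 211, the tallest of the 10 genes in MEF, iPSC and ESC. Ranked within its own list, the Tead3 start-site peak was taller than 91.5% of peaks in MEF, 58.4% in intermediate cells, 56.7% in iPSC and 92.5% in ESC. With depth unknown, an order of heights across libraries describes these lists and is not a measured difference in openness.

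**Figure D1:**
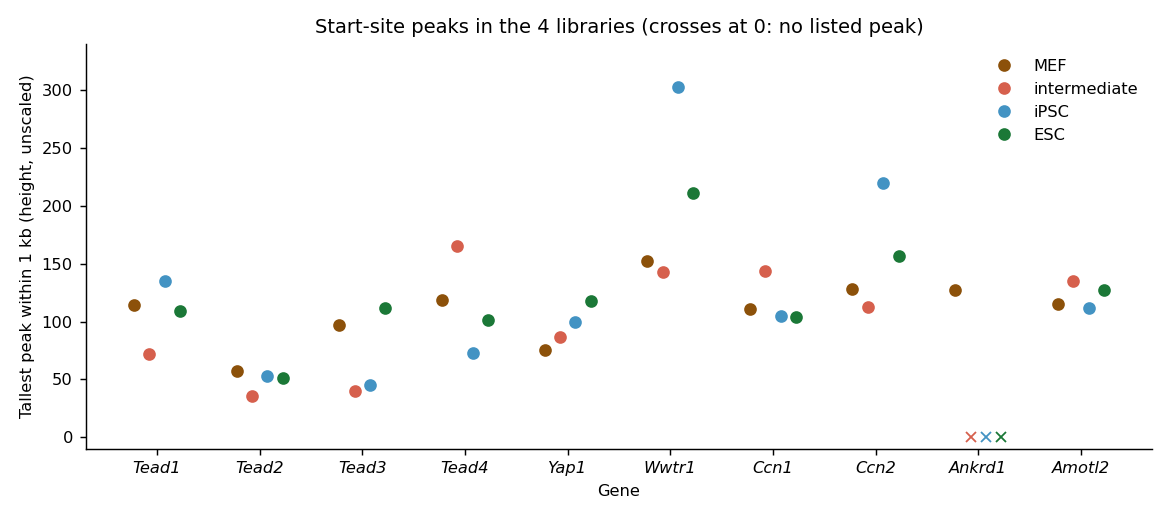
Height of the tallest peak within 1 kb of a start site (vertical axis, unscaled height) at each of the 10 genes in the 4 libraries, 1 point per library. Ankrd1 has a point at 127 in MEF and crosses at 0, for no listed peak, in the other libraries, while the other 9 genes have 4 points each.

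The 250 bases before the start site are shown for the targets and coactivator genes in the promoter table, since the text GGAATG that Tead proteins recognise occurs in each. Capitals mark GGAATG or its reverse complement. Positions count back from the start site to the first base of the match as printed, sequences are from RefSeq on GRCm38.p6, and each is written 5′ to 3′ on the strand of the gene.
Ankrd1, chr19:36119845-36120094, minus strand: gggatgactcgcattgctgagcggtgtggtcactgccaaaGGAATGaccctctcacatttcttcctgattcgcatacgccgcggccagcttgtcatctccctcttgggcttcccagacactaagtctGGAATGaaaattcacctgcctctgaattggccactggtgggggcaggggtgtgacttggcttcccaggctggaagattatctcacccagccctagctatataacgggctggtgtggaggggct
Ccn1, chr3:145649986-145650235, minus strand: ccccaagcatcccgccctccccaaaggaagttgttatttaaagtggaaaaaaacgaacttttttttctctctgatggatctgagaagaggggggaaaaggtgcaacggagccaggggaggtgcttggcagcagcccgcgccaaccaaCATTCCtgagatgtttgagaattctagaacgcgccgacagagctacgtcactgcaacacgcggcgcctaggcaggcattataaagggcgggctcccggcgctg
Amotl2, chr9:102717554-102717803, plus strand: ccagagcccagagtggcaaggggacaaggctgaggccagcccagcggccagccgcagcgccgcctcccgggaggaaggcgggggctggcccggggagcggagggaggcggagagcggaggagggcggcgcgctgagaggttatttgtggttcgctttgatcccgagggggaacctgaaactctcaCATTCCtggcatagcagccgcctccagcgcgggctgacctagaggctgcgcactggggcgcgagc
Yap1, chr9:8004597-8004846, minus strand: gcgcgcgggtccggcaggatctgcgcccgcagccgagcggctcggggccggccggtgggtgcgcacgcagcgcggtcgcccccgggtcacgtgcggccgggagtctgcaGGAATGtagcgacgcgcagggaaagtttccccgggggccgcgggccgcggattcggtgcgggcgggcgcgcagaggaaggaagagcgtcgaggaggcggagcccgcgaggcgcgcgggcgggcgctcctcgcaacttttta
Wwtr1, chr3:57575911-57576160, minus strand: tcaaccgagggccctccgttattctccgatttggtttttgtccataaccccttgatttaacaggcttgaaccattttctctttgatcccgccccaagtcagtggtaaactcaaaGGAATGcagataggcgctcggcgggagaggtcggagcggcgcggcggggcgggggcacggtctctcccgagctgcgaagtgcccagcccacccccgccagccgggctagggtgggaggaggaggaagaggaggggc

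GGAATG, searched on both strands, was found in the 250 bases before a start site at 6 of the 7 member genes in that table, all but Tead2. It was found at 13.3% of 17274 protein-coding genes in the table and in 11.6% of 21045 promoters, where a gene can have several. Ankrd1 holds matches 210 and 123 bases before the start, Ccn1 holds 1 at 103, Amotl2 at 65, Yap1 at 141 and Wwtr1 at 136. Tead3, which has 3 start sites in the table, holds it 182 bases before 1 of them and 123 and 114 bases before another. The AP-1 sequence TGANTCA, searched on both strands, occurs in none of the 7 and so overlaps none of these matches, against 7.25% of genes and 6.17% of promoters. A match is a string of letters and no binding was measured. The printed bases of Yap1, Wwtr1, Ccn1 and Amotl2 lay wholly under listed peaks in all 4 libraries, and those of Ankrd1 wholly under a peak in MEF and under none elsewhere. At Tead2 the 250 bases were covered in full in MEF and ESC and for 231 bases in iPSC, with none covered in the intermediate.

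Over the gene bodies and their flanks, open chromatin at these genes was listed most often in MEF. Peaks that shared at least 1 bp were merged across libraries into 371 regions, each called open in a library with a peak in it. Of these, 128 were at the 4 targets and 243 at the 6 factor genes. In MEF 221 of the 371 regions were open (59.6%, interval 54.5 to 64.4), against 48.2% of the 204691 regions near any protein-coding gene. The intermediate had 153 open (41.2%, against 37.2%), iPSC 113 (30.5%, against 35.0%) and ESC 112 (30.2%, against 31.4%). The targets went from 83 open regions in MEF to 56 in intermediate cells, 27 in iPSC and 24 in ESC. The factor genes went from 138 to 97, 86 and 88. Of the 371 regions, 264 had the member as their nearest gene.

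Amotl2 had the most open regions in MEF, with 33 in MEF, 26 in intermediate cells, 9 in iPSC and 9 in ESC. Ccn1 had 19, 16, 6 and 8, and Ccn2 had 20, 7, 11 and 6. Ankrd1 had 11, 7, 1 and 1, and its 1 region in iPSC and in ESC was the same one. Each target had its highest count in MEF. Tead1 had 32, 33, 15 and 24, Tead2 14, 9, 9 and 13, and Tead3 25, 11, 11 and 13. Tead4 had 23, 21, 17 and 16. Yap1 had 23, 16, 22 and 11, and Wwtr1 had 21, 7, 12 and 11. Of all 10 genes, only Tead1 had more open regions in the intermediate than in MEF.

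**Figure D2:**
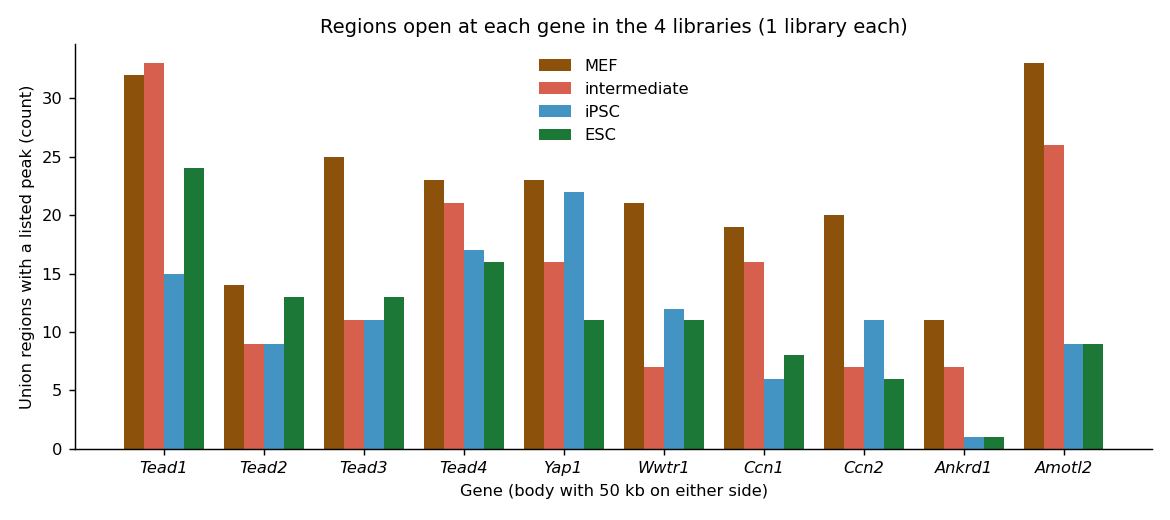
Number of regions with a listed peak (vertical axis) over each gene body and 50 kb on either side, 1 bar for each of the 4 libraries. MEF has the tallest bar at 9 of the 10 genes, and Ankrd1 falls from 11 regions in MEF to 1 in iPSC and ESC.

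Set against MEF, 159 of the 371 regions had no peak in the intermediate and are called lost. Near any gene 36.5% of regions were lost. Another 91 of the 371 were gained, against 25.5% near any gene. Kept regions numbered 62, which is 28.1% of the MEF regions (interval 22.5 to 34.3), against 24.2% near any gene. In iPSC 168 of the 371 were lost (background 36.7%) and 60 gained (23.5%), and in ESC 163 were lost (36.2%) and 54 gained (19.4%). As shares of the 371, losses lay above the background in each comparison. Gains lay near it in the intermediate and below it in iPSC and ESC. Of the targets' 128 regions, 61 were lost and 34 gained in the intermediate, 68 and 12 in iPSC, and 67 and 8 in ESC. Of the factor genes' 243 regions, 98 and 57, 100 and 48, and 96 and 46 were lost and gained in the same order. A broad open stretch is often listed as several sub-peaks, and joining those at most 10 bp apart brought the 371 regions to 229, with 75 lost and 57 gained in the intermediate, 82 lost in iPSC and 77 lost in ESC. Regions lost in the intermediate had a median MEF height of 27, against 64 for the kept ones, and near all genes these medians were 29 and 72.

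More regions were lost than gained in the intermediate at 9 of the 10 genes, all but Tead1, where 53.1% of genes with a region had more lost and 35.7% had more gained. With sub-peaks joined the count was 6 of 10, with Tead1 and Tead4 gaining more and Tead2 and Amotl2 even. The median share of a gene's MEF regions that were lost was 71.2% for the 10 genes, 79.2% for the targets and 69.1% for the factor genes, beside 68.4% for all genes. The targets were split, with 60.6% at Amotl2, 68.4% at Ccn1, 90.0% at Ccn2 and 90.9% at Ankrd1. Among the factor genes the median was 79.8% for the coactivator genes and 64.1% for the Tead genes. Ankrd1 stood at the upper end with 10 of its 11 MEF regions lost, and Tead4 at the lower end with 13 of 23.

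Regions open in MEF alone made up 58 of the targets' 128 regions, or 45.3% (interval 37.0 to 54.0). At the factor genes they made up 83 of 243, or 34.2% (28.5 to 40.3), and near any gene 32.9%. Within the factor genes they were 33 of 78 at the coactivator genes and 50 of 165 at the Tead genes. With sub-peaks joined the share was 31.3% for the targets (interval 21.5 to 43.2) and 22.2% for the factor genes (16.5 to 29.2), against 25.2% near any gene. Both intervals then held the background, so the targets' higher share did not exceed counting error in that setting. Regions of 1 gene share a locus, so these shares do not count independent events. By gene, the number open in MEF alone was 20 at Amotl2, 19 at Tead1, 17 at Ccn2 and Wwtr1, 16 at Yap1, 12 at Tead3, 11 at Tead4 and Ccn1, 10 at Ankrd1 and 8 at Tead2.

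Regions open in the intermediate alone made up 29 of the targets' regions (22.7%, interval 16.3 to 30.6) and 34 of the factor genes' (14.0%, 10.2 to 18.9), against 18.7% near any gene. For all 10 genes, 63 of the 153 regions open in the intermediate were in no other list (41.2%, against 50.3% near any gene), and 141 of the 221 MEF regions were (63.8%, against 68.2%). Of the 63 regions open in the intermediate alone, Tead1 had 17, Amotl2 11, Ccn1 10, Tead4 7, Ankrd1 6, Yap1 5, Wwtr1 3, Ccn2 2, and Tead2 and Tead3 1 each. The 34 regions that the targets gained in the intermediate all lay in the flanks, outside the gene bodies and more than 1 kb from their start sites. At the factor genes 38 of the 57 gained regions lay in the gene body. The target genes are short, with gene bodies from 3015 bp for Ccn1 to 16328 bp for Amotl2, while the Tead1 body spans 227429 bp.

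**Figure D3:**
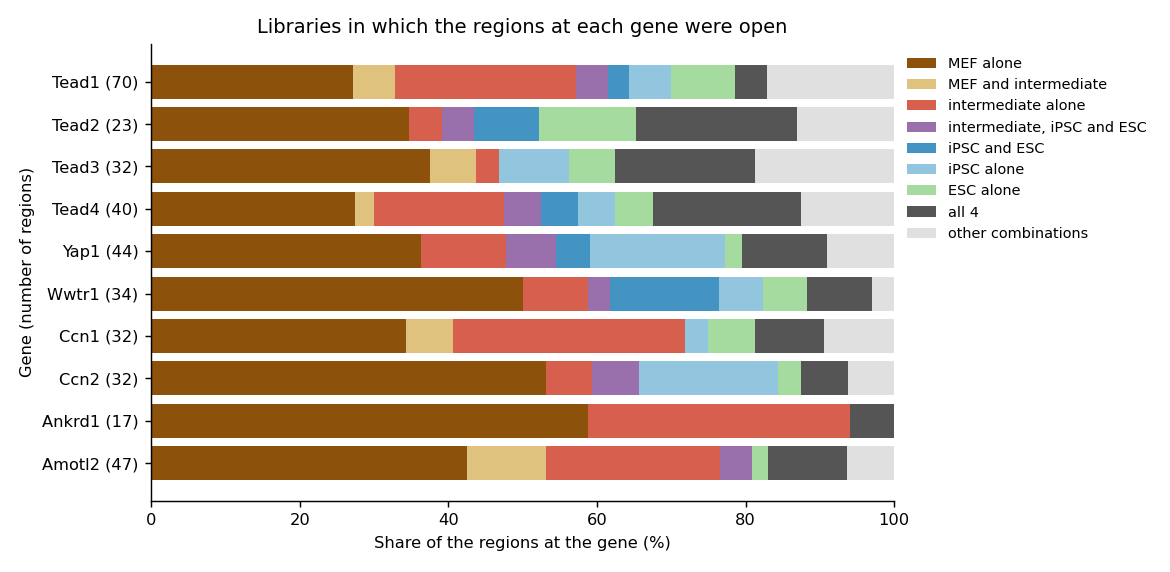
Share of the regions at each gene (horizontal axis, percent) by the libraries in which they were open, with the number of regions in brackets. Mid blue, for regions open in iPSC and ESC but in neither other library, appears at each factor gene but Tead3 and at none of the 4 targets. These are 13 of 371 regions, too few to set the 2 groups apart.

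Of the regions open in MEF and in neither pluripotent line, 14 of 155 were open in the intermediate (9.03%, interval 5.46 to 14.6), against 5.55% near any gene. They made up 3.77% of all 371 regions, against 1.93% near any gene. They were 5 at Amotl2, 4 at Tead1, 2 each at Ccn1 and Tead3, and 1 at Tead4. The Amotl2 region chr9:102728481-102730180, within the gene, had a height of 32 in MEF and 104 in the intermediate. Another Amotl2 region, chr9:102777111-102778790, had 96 in MEF and 36 in the intermediate. The Ccn1 region chr3:145618011-145619050 had 43 and 105. With sub-peaks joined the share was 18.6%, against 9.39% near any gene.

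Regions open in both pluripotent lines and not in MEF were fewer. There were 27, of which 14 were open in the intermediate (51.9%, interval 34.0 to 69.3), against 39.7% near any gene. All 4 of those at the targets were among the 14, 2 at Ccn2 and 2 at Amotl2. At the factor genes 10 of 23 were. The 13 not open in the intermediate were therefore all at factor genes, among them the Yap1 region chr9:7983491-7984270 with a height of 125 in iPSC and 98 in ESC. Tead3 had none of the 13. Near any gene, 20126 of 204691 regions were open in both pluripotent lines and not in MEF, and 8000 of them were open in the intermediate. The 13 are too few to set factor genes and targets apart.

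Regions open in all 4 libraries numbered 41 of 371 (11.1%, interval 8.25 to 14.6), against 8.41% near any gene, and 10 of them were at start sites. The iPSC library alone held 26 regions (7.01%, against 12.4%) and ESC alone 20 (5.39%, against 7.95%). The Wwtr1 region chr3:57558571-57559340, inside the gene, was the tallest of those in iPSC alone, with a height of 210.

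Open stretches that touched the gene bodies of the targets, many of which ran on past the gene, summed to the most in MEF. After joining sub-peaks, the stretches that touched the Ccn1 gene body (chr3:145646971-145649985) summed to 9.48 kb in MEF, 2.85 kb in intermediate cells, 1.49 kb in iPSC and 2.23 kb in ESC. The widest of them in MEF was 6.08 kb, wider than 99.96% of all stretches in that library, and the widest in the others was 2.64, 1.49 and 1.56 kb. The MEF stretch ran upstream past the start site. Upstream of it the other libraries also had peaks, but gaps of more than 10 bp cut them off from the stretch on the gene. At Ccn2 (chr10:24595442-24598683) the sum was 5.11 kb in MEF, 1.94 kb in intermediate cells, 1.83 kb in iPSC and 1.15 kb in ESC. At Amotl2 (chr9:102717091-102733418) it was 13.0, 8.63, 5.61 and 3.74 kb, and at Ankrd1 it was 1.83 kb in MEF and no stretch touched the gene elsewhere. MEF had the highest sum at all 4 targets.

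At the factor genes the order was mixed. Tead1 (chr7:112679356-112906784) had 15.0 kb in MEF, 19.5 kb in intermediate cells, 10.95 kb in iPSC and 15.9 kb in ESC. Tead4 (chr6:128227143-128300813) had 11.7, 13.2, 10.6 and 10.9 kb, and Yap1 (chr9:7931999-8004638) had 6.24, 9.23, 11.1 and 4.63 kb. Tead2 (chr7:45215792-45233468) had 1.85, 1.07, 2.39 and 2.78 kb. Tead3 (chr17:28331671-28350805) had 9.08, 4.15, 2.24 and 4.43 kb, and Wwtr1 (chr3:57455644-57575910) had 7.97, 3.61, 7.71 and 6.22 kb. MEF thus had the highest sum at Tead3 and Wwtr1 and at no other factor gene. In all, MEF was highest at 6 of the 10 genes, against 37.3% of the 17544 protein-coding genes touched by a stretch. In the wider pathway lists taken up below, it was highest at 7 of 14 kinase-module genes, 8 of 11 cofactor and scaffold genes and 11 of 20 other Yap targets. The split between targets and factor genes was thus not repeated in those lists. Summed over the 4 targets, the stretches came to 29.5 kb in MEF, 13.4 kb in intermediate cells, 8.93 kb in iPSC and 7.12 kb in ESC. Over the factor genes they came to 51.9, 50.7, 45.0 and 44.9 kb. The median per gene was 7.30, 2.40, 1.66 and 1.69 kb for the targets and 8.5, 6.69, 9.16 and 5.4 kb for the factor genes. Over all genes touched the median was 1.96, 1.72, 1.61 and 1.81 kb. This measure was added after the peaks had been seen. MEF stayed highest at all 4 targets with only bases inside the gene counted, with the taller 50% of each list and with lists of equal length. Inside the gene bodies alone, the 4 targets summed to 19.4 kb in MEF, 11.5 kb in intermediate cells, 7.58 kb in iPSC and 6.05 kb in ESC. Part of the difference in whole stretches thus lay outside the genes.

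**Figure D4:**
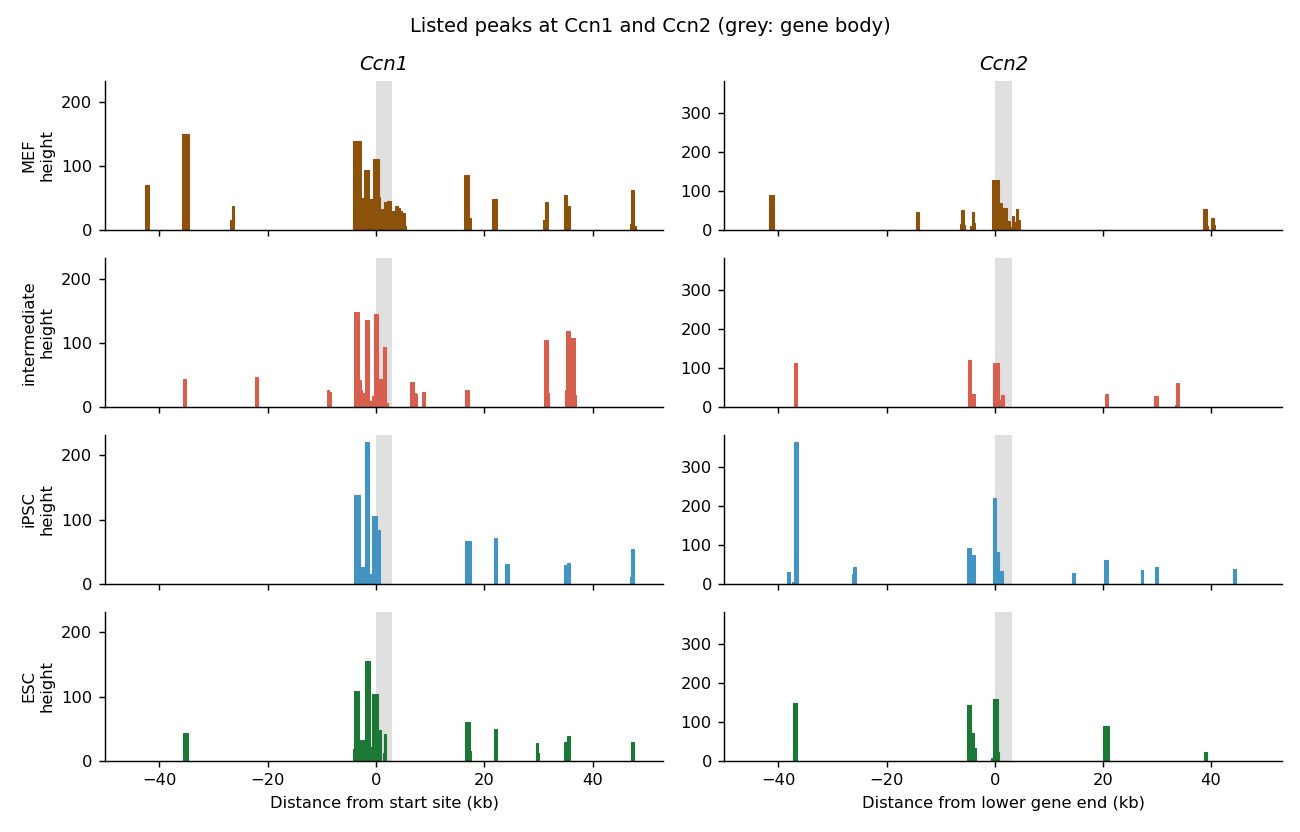
Listed peaks in the 4 libraries around Ccn1 and Ccn2 (horizontal axis, distance in kb from the start site of Ccn1 and from the lower gene end of Ccn2; vertical axis, unscaled height), with the gene body in grey. The MEF rows show a run of close or adjoining peaks that goes on past the far end of the gene body, while the runs in the other rows stop inside it. The iPSC row of Ccn2 shows its tallest peak, 363, 36.3 kb below the gene.

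The tallest regions of each target differed between libraries. Around Ccn1, a run of MEF peaks over and past the end of the gene, chr3:145644381-145647040, held heights from 6 to 37 and no peak in any other library. The tallest peak in MEF was at chr3:145684451-145685850, with a height of 149 there, 44 in intermediate cells, none in iPSC and 44 in ESC. On the other side of Ccn1, nearer to Znhit6, chr3:145613241-145614111 had a peak of 107 in the intermediate alone. That peak adjoined an intermediate peak of 119, at most 10 bp away, in a region open in every library. The tallest peaks there were 54 in MEF, 33 in iPSC and 38 in ESC. The region over the Ccn1 start site and upstream of it, chr3:145648021-145654240, held 139, 148, 221 and 155, the tallest in the intermediate, iPSC and ESC.

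At Ccn2, a run over and past the upper end of the gene, chr10:24597651-24600160, was likewise open in MEF alone, with heights from 6 to 54. The region chr10:24557971-24559100, which lies 36.3 kb from the gene, had no peak in MEF, 112 in intermediate cells, 363 in iPSC and 149 in ESC. Its iPSC peak was taller than 99.0% of that list. A region 3.41 kb from the gene, chr10:24590271-24592030, had 45 in MEF, 121, 92 and 143, and was the tallest in the intermediate. The tallest lost region at Ccn2, chr10:24553781-24554600, had 89 in MEF and no peak in the other 3 libraries.

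At Ankrd1, the 10 regions open in MEF alone had heights from 12 to 127, and the 6 open in the intermediate alone had heights from 6 to 125. These included chr19:36109291-36109940, 2.03 kb past the end of the gene, with 125, chr19:36102951-36103661 with 110 and chr19:36149831-36151111 with 91. The peak of 125 began 9.904 kb from the start site, close to a MEF peak of 27 that ended at 9.843 kb. With no shared base, the 2 were counted as separate regions. MEF and the intermediate shared a single region, chr19:36082871-36084470, with 119, 76, 48 and 56, and its nearest gene is Rpp30. The intermediate thus had tall peaks on both sides of Ankrd1 but none touching the gene.

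At Amotl2, the region chr9:102725811-102727180 within the gene was open in all 4 libraries with 164, 229, 134 and 122, the tallest in the intermediate. The tallest in MEF, chr9:102779091-102780490, had 180, 169, 117 and 104. The tallest lost region, chr9:102673151-102674180, had 149 in MEF alone, and its nearest gene is Anapc13. In the other direction, chr9:102689061-102691750 had no peak in MEF, 68 in intermediate cells, 135 in iPSC and 149 in ESC, and chr9:102771271-102772330 had none, 136, 48 and 50.

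**Figure D5:**
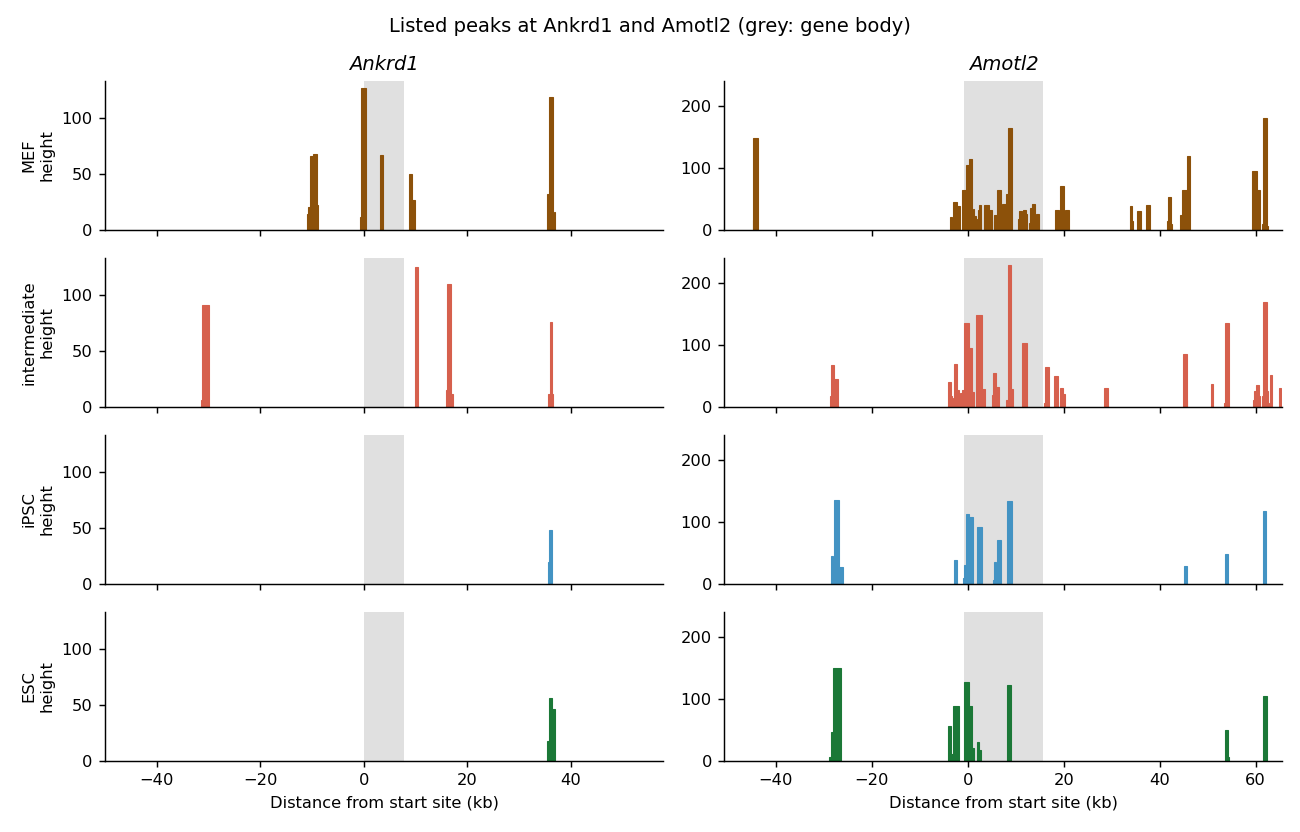
Listed peaks in the 4 libraries around Ankrd1 and Amotl2 (horizontal axis, distance from the start site in kb; vertical axis, unscaled height), with the gene body in grey. The Ankrd1 body holds peaks in MEF and in no other library, with the intermediate's peaks of 125, 110 and 91 beside it, while Amotl2 has peaks over its start and body in all 4.

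Among the factor genes, Tead4 gained the tallest region. The Tead4 region chr6:128261021-128262790, inside the gene, had no peak in MEF, 249 in intermediate cells, 107 in iPSC and 60 in ESC. The tallest region at Tead4 in every library, chr6:128199791-128201630, had 328, 330, 352 and 236. At Tead1, chr7:112690231-112692070 had no peak in MEF and 108, 94 and 121 in the other libraries, and chr7:112719911-112721070 had 103 in MEF, none in the intermediate or iPSC and 30 in ESC. Tead1 was tallest in the intermediate at chr7:112823131-112824390, with 109, 188, 63 and 110. At Tead2, chr7:45211431-45212990 had none, 133, 29 and 34, and its nearest gene is Dkkl1. Tead3 had its tallest region in every library at chr17:28312731-28314340, with 262, 173, 107 and 206, nearest to Fance.

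At the coactivator genes, the Yap1 region chr9:7994911-7996620, inside the gene, had no peak in MEF, 124 in intermediate cells, 39 in iPSC and 30 in ESC. The Yap1 region chr9:8035081-8036410, nearest to Cfap300, had none, 73, 364 and 122. Wwtr1 had its tallest region in all 4 libraries over its start site, chr3:57574411-57577140. Its tallest lost regions, chr3:57411311-57412121 and chr3:57487201-57487851, each had 84 in MEF, and its tallest gained region, chr3:57583401-57584031, had 41 in the intermediate. Gained regions of over 100 in the intermediate were thus found at Tead1, Tead2, Tead4 and Yap1 among the factor genes, and at all 4 targets. The one at Ccn1 adjoined a region open in every library. How many of all genes had such a region was not counted, so this does not set the factor and target genes apart. The median height of gained regions in the intermediate was 32 at the factor and target genes together, against 36 near all genes.

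Most other genes of the pathway had a start-site peak in every library. All 14 genes of the kinase module, which includes Stk3, Stk4, Lats1, Lats2 and Nf2, had a start-site peak in every library. Of 12 genes for cofactors and scaffolds, 10 had one in every library. Of 20 other genes known as Yap targets, 20 had one in MEF, 17 in intermediate cells, 19 in iPSC and 19 in ESC. The 3 lost in the intermediate were Axl, a receptor tyrosine kinase, Foxf2, a forkhead factor of mesenchyme, and Ccdc80, a secreted matrix protein. Axl had 37 open regions in MEF, 9 in intermediate cells, 6 in iPSC and 11 in ESC. Ccdc80 had 14, 5, 2 and 2, and lacked a start-site peak in iPSC and ESC as well. Foxf2 had 3, 1, 10 and 7.

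More regions were lost than gained in the intermediate at 8 of the 14 kinase-module genes, 8 of the 12 cofactor genes and 17 of the 20 other targets, beside 53.1% of all genes with a region. The median share of MEF regions lost was 70.9%, 66.7% and 80.7%, beside 68.4% for all genes, so the kinase-module and cofactor lists lay near the background. The 4 targets described here, with 79.2%, lay beside the other targets, though Ccn1 (68.4%) and Amotl2 (60.6%) did not exceed the value for all genes. The 6 factor genes, with 69.1%, lay beside the kinase module. Within them the coactivator genes had 79.8%, near the targets, and the Tead genes 64.1%. Marker lists of several cell types also had high medians, with 88.2% for the fibroblast genes, 84.6% for the pluripotency genes, 83.3% for the myeloid genes and 75.0% for the endothelial genes, and 54.2% for the epithelial genes. More regions were lost than gained at 10 of 10 fibroblast, 4 of 10 pluripotency, 5 of 6 myeloid, 2 of 5 endothelial and 3 of 8 epithelial genes. High medians were thus not limited to the fibroblast list, but they rest on unlike numbers of regions. Some pluripotency genes had few MEF regions, such as Zfp42 with 1 and Dppa4 with 2. The median number lost was 1.5 for the pluripotency genes, against 19 for the fibroblast genes. In the myeloid list, the 50 kb flanks of Csf1r overlap those of the fibroblast gene Pdgfrb.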

How the data were processed

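Per the labels, the libraries are ATAC-seq of 4 cell populations. The authors deposited 1 peak list per library, with each peak's height as an unscaled signal (a whole number, at least 5). Tools named in the submitters' processing notes, without their roles, are MACS 1.4.2-1, Bowtie2, CASAVA 1.8.2 and Picard, with the build mm10.

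Peaks on 19 autosomes and the X chromosome were merged where they shared at least 1 bp. A region was open in a library with a peak in it. Gene bodies came from the GRCm38.p6 gene table, start sites from a promoter table that holds 17274 of 21631 protein-coding genes, with either gene end used otherwise. Shares carry 95% Wilson intervals, and no test was run. The merging was tested on simulated peaks with sub-peaks joined first, and not on unjoined peaks, from which the 371 regions were made. Python 3.11.15, pandas 2.3.3 and numpy 2.4.6 were used.

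The members and lists were chosen with earlier results of these data known. Named were all 10 members, the tallest region of each member in each library, listed genes whose start-site peak differed between MEF and the intermediate, and the 3 genes most like each group. The tallest lost or gained regions, those beside a target gene and those open in MEF and the intermediate alone were chosen after their values were seen. Heights between libraries depend on depth, which is unknown.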

Additional observations from a re-analysis of the deposited data

How the results depend on the processing

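Of 103 recomputed shares and counts for the groups of genes, 84 held within the error or within 1.5 times. More regions were lost than gained in the intermediate at 9 of the 10 genes as reported, and at 8 with a 100 kb window or lists of equal length, 7 with a 20 kb window or the taller 50%, and 6 with sub-peaks joined. Tead1 never had more lost, and Tead4 had more lost in the 100 kb window and as reported only. Joining sub-peaks moved the share of MEF regions open in the intermediate to 43.6% (36.1% near any gene), that of MEF-only regions to 18.6%, the MEF-alone share to 31.3% at targets and 22.2% at factor genes (25.2% near any gene), and the counts to 75 lost and 57 gained in the intermediate, 82 lost in iPSC and 77 lost in ESC. Once joined, a broad stretch counts once, and whether this alone moved the values was not tested. With the taller 50% of each list, 40.0% of MEF regions were kept (34.5% near any gene). The factor genes' MEF-alone share was 25.7% (28.2% near any gene, so below it rather than above). In that setting 78 regions were lost and 48 gained in the intermediate, 89 and 35 in iPSC, and 83 and 32 in ESC. There 1 factor gene, Tead3, had its longest stretches in MEF. Fewer peaks entered, and the cause of these shifts was not tested. Requiring 50% of the shorter peak, over single MEF peaks, gave 40.5% kept. A 20 kb window gave a MEF-alone share of 54.7% at targets, and the cause was not tested. A 100 kb window, lists of equal length, leaving out Tead1, regions nearest to the member only and a 2.5 kb end window moved none of these shares and counts. For single genes, 53 of 100 counts moved by over 1.5 times under 1 setting or another. No paired analysis was possible because each group has 1 library.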

Other observations

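Among 10414 protein-coding genes with at least 20 regions within 50 kb and outside the windows of the 10 genes, the genes whose peaks were spread over the 4 libraries most like those of the targets were Fam220a (Euclidean distance 0.00769 between shares of peaks), Nupr1 (0.00958) and Nav2 (0.0114). The targets had 38.4% of their peaks in MEF, 30.5% in intermediate cells, 15.1% in iPSC and 16.04% in ESC, and Nupr1 had 38.8%, 30.6%, 14.3% and 16.3%. Nearest to the factor genes, with 30.3%, 26.1%, 20.1% and 23.6%, were Wnk2 (0.00728), Cenpf (0.00891) and Pex11a (0.00891). The likeness is over 4 libraries only. All peaks of the 4 lists divided as 28.4%, 24.1%, 24.0% and 23.4%.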
